A study of Mus musculus with 6 samples.

Results

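A set of 10 genes known as markers of adventitial fibroblasts was followed across 6 one-colour arrays of male mouse lung. Of the 10, 9 were lower in sorted myofibroblasts than in sorted steady-state fibroblasts, where 8.02% of the 16006 genes tested were lower. With only the sorted arrays fitted the count was 5, where 574 of the 16006 genes were lower. Both counts include Ly6a, which encodes the Sca-1 protein excluded by the myofibroblast gate, so its difference is no finding. The 10 genes are Pi16, Dpp4, Ly6a, Ly6c1, Cd34, Ackr3, Scara5, Vit, Dpt and Clec3b, markers of the fibroblasts around large vessels and airways. They were chosen by name, with earlier results of these data known. They make up 10 of the 22909 named genes on the array and 14 of its 56605 probes. The myofibroblasts were CD49e+Sca1-Lin- cells sorted from lungs of bleomycin-treated mice, the fibroblasts were CD140a+Lin- cells sorted from untreated lungs, and the third group was whole homogenate of untreated lung. Each group had 2 arrays. The sorted cells were collected in sets of 50000, and 5.8 ng of total RNA was labelled for each array. Strain, age and the time after bleomycin are not given in the sources used here. The gate and the bleomycin treatment changed together between the sorted groups and cannot be told apart. No label says whether a group's arrays came from different animals, and the p-values measure only the spread between these arrays, which may be technical.

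Adventitial fibroblasts are the stromal cells of the connective tissue sheath around arteries, veins and large airways. They are usually separated from alveolar fibroblasts, which lie in the alveolar wall and store lipid, by surface proteins such as Sca-1 (Ly6a) and CD34 and by secreted proteins such as Pi16. In many mouse tissues cells positive for Pi16 and Dpp4 are described as a reserve from which other fibroblasts arise. Several of the markers are shared with other lung cells: Ly6a, Ly6c1 and Cd34 are also made by endothelium, and Dpp4 by T cells and some epithelium.

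Start-site sequences were available from RefSeq (build GRCm38.p6) for 6 of the 10 genes, as windows of 300 bases that run from 250 before to 50 after the start. Pi16 and Dpp4 are shown because their names are most often used for this cell state. Ly6c1 is set beside its near-identical paralog Ly6c2 because the brighter Ly6c1 probe and the Ly6c2 probe had nearly the same profile. Capitals mark the motifs searched on both strands: the TATA motif TATAAA, the core of the GC box GGGCGG and the CCAAT box. The windows are chr17:29318632-29318931 (plus strand) for Pi16, chr2:62412182-62412481 (minus strand) for Dpp4, chr15:75048788-75049087 (minus strand) for Ly6c1 and chr15:75111888-75112187 (minus strand) for Ly6c2.
Pi16: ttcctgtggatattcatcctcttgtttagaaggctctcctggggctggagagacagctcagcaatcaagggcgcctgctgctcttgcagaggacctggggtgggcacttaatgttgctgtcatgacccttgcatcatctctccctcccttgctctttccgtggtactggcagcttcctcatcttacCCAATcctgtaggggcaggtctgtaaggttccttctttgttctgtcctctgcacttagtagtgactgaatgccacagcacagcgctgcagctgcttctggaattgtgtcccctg
Dpp4: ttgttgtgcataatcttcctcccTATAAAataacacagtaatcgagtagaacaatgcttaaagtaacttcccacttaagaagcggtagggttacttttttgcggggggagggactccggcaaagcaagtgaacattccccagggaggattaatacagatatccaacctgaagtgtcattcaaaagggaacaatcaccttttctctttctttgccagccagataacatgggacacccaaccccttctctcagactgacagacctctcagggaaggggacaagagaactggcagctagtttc
Ly6c1: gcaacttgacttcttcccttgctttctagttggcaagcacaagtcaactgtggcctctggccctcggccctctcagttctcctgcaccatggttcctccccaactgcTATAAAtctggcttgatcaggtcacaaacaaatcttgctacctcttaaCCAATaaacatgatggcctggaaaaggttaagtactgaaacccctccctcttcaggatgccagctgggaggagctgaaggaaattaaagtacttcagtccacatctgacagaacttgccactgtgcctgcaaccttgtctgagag
Ly6c2: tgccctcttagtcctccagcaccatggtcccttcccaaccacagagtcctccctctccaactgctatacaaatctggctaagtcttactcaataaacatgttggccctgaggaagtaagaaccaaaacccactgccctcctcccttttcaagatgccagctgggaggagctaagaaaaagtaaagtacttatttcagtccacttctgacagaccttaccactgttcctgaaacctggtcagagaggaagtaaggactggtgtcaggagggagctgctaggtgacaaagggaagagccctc
The Pi16 window held CCAAT with its first base at position -64 from the start, and the Dpp4 window held TATAAA at -227. The Ly6c1 window shown held TATAAA at -143 and CCAAT at -95. A second Ly6c1 window, from another start, held none of the motifs, as did the Ly6c2 window, so the presence of these motifs depends on the start chosen. Over all 32851 windows of this length, 13.6% held TATAAA, 35.7% GGGCGG and 37.4% CCAAT. The Ly6c1 and Ly6c2 windows shown had the same base at 186 of 232 aligned positions, 80.2%, and the other pairings of their windows from 53.2% to 88.4%. CpG pairs numbered 3 in Pi16, 4 in Dpp4, 4 in Dpt, 7 in Cd34, 8 in Ackr3, and 1 and 0 in the Ly6c1 windows, against a median of 7 over all windows.

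Marker genes of the labelled cells and of other cell types were read before the members. Levels are the processed signal of a gene's probe in multiples of that array's 75th percentile, and sums over a list mix probes of different brightness, so they compare arrays only. The 5 fibroblast markers summed to 998 and 1040 in myofibroblasts, 466 and 298 in fibroblasts, and 42.3 and 36.9 in homogenates. The 6 myofibroblast markers summed to 344 and 381 in myofibroblasts, 19.0 and 29.2 in fibroblasts, and 36.4 and 37.5 in homogenates, and Pdgfra, which encodes the CD140a of the fibroblast gate, read 3.27 and 3.35 on the log2 scale in myofibroblasts, 6.20 and 5.13 in fibroblasts, and 2.90 and 2.84 in homogenates. Markers of both labels were thus present in their sorts, though the fibroblast markers summed higher in myofibroblasts than in fibroblasts. Itga5, in the myofibroblast list, encodes the CD49e of the myofibroblast gate. The gates selected for CD49e and CD140a, so Itga5 and Pdgfra give no independent check of the sorts. The 10 endothelial markers summed to 0.451 and 0.637 in myofibroblasts, 1.78 and 1.5 in fibroblasts, and 96.2 and 93.1 in homogenates. Of the 10, 4 and 5 were well above background on the myofibroblast arrays, 4 on each fibroblast array and 10 on each homogenate array, and Kdr, Tie1 and Emcn were not on any sorted array. Tek carried most of the fibroblast sum, at log2 levels of -6.91 and -3.16 in myofibroblasts, 0.45 and 0.10 in fibroblasts, and 2.25 and 2.02 in homogenates. The 8 epithelial markers summed to 11.8 and 17.7 in myofibroblasts, 121 and 72.1 in fibroblasts, and 842 and 831 in homogenates, and Foxj1 and Cdh1 were not well above background in either sort. Scgb1a1, a secretory protein of airway club cells, made up most of the fibroblast sum, at log2 levels of 3.38 and 3.99 in myofibroblasts, 6.88 and 6.11 in fibroblasts, and 9.26 and 9.23 in homogenates. The 6 mesothelial markers stayed at or under 0.996 on every sorted array and reached 8.21 and 8.13 in homogenates. The 10 leukocyte markers summed to 184 and 175 in myofibroblasts, 193 and 176 in fibroblasts, and 270 and 282 in homogenates. Itgam, at log2 levels of 7.08 to 7.44 on every array, made up much of the leukocyte sums, while Ptprc read -6.42 and -3.89 in myofibroblasts, -6.90 and -6.69 in fibroblasts, and 4.55 and 4.57 in homogenates. The 7 smooth muscle and pericyte markers summed to 41.4 and 54.2 in myofibroblasts, 14.1 and 11.2 in fibroblasts, and 10.1 and 12.9 in homogenates. All arrays shared 1 slide and 1 scan, with the sorted samples in row 1 and the homogenates in row 2, so the row on the slide and the homogenate preparation cannot be told apart.

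The comparison of the sorted groups asks how these markers stood in bleomycin myofibroblasts against fibroblasts of the untreated lung. Of the 10 genes, 9 fell and 1, Dpt, did not pass the test, where 8.02% of the 16006 genes tested fell, 9.22% rose and 17.2% changed in either direction (limma, Benjamini-Hochberg adjusted p under 0.05). The median difference of the members was -2.17 on the log2 scale, against -0.06 over all genes tested. All 10 genes had both myofibroblast arrays below both fibroblast arrays, where 32.7% of tested genes did and 63.1% were apart in either direction. Ly6a encodes the Sca-1 protein against which the myofibroblasts were gated, so its difference is no finding, and the count without it is 8 of 9. The median and the 10 genes with arrays apart also include Ly6a. The members were chosen with earlier results of these data known, so their excess over the shares of all genes is no independent support. Markers of other cells also differed between the sorted groups. The epithelial Scgb1a1 (-2.81 ± 0.37; SE, n = 2 each; adjusted p = 0.00961) and Sftpc (-1.34 ± 0.23; adjusted p = 0.0187) fell, 2 of 5 epithelial markers tested. The endothelial Tek, well above background on 1 of the 2 myofibroblast arrays, was at least 18.1-fold lower (-5.31 ± 1.15; adjusted p = 0.0344). Of the 6 endothelial markers tested, 2 rose, Erg and Egfl7. Of the 6 leukocyte markers tested, 1 rose, Tyrobp, by at least 9.07-fold (adjusted p = 0.00495), and 0 fell. Of the 6 smooth muscle and pericyte markers tested, 4 rose, and 2, Kcnj8 and Abcc9, fell. The part of those cells in the members' differences was not tested. In bulk samples, fewer cells of a type and less RNA per cell cannot be told apart.

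**Figure D1:**
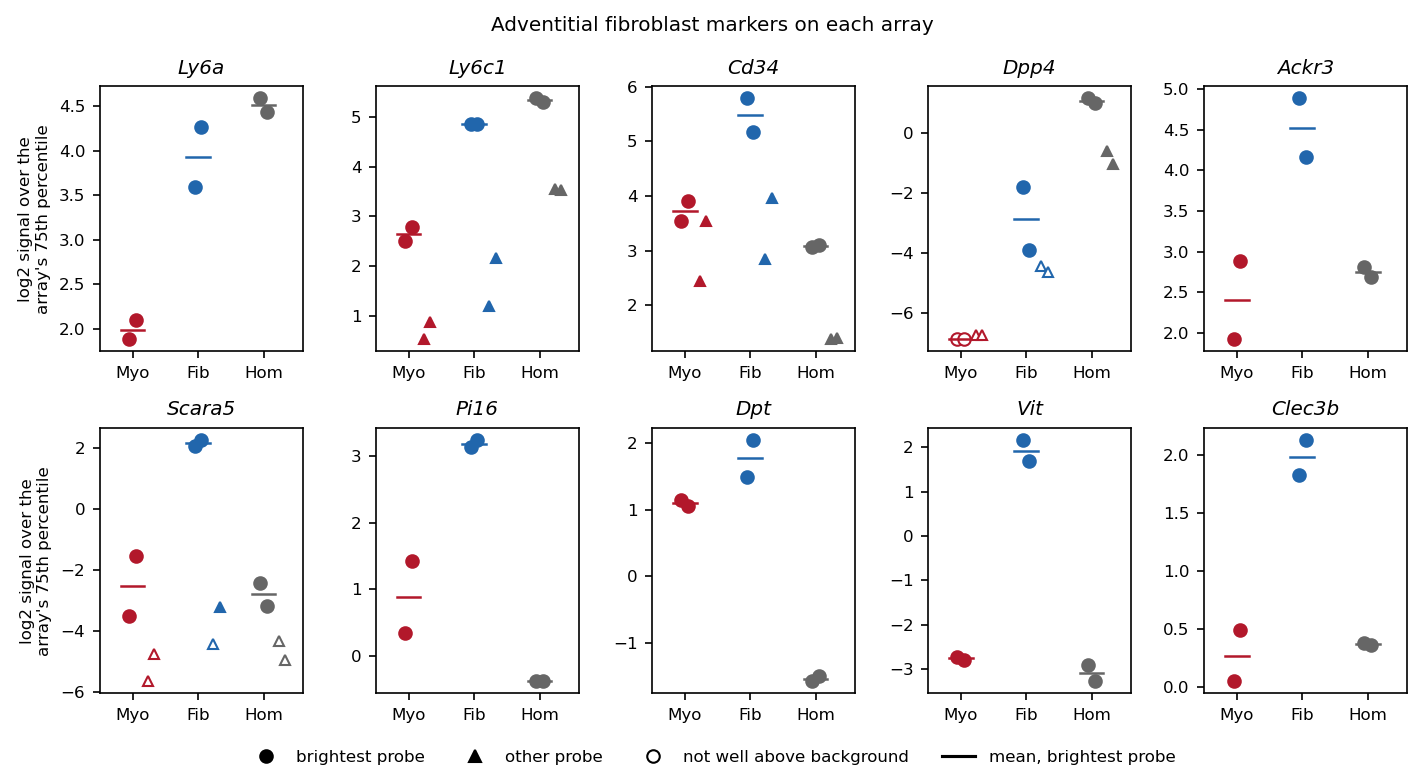
Level of each of the 10 genes on each array, as log2 of the processed signal relative to the array's 75th percentile, with myofibroblasts, fibroblasts and homogenates from left to right, circles for the brightest probe, triangles for other probes, a line at the mean and open symbols where the probe was not well above background. Vit and Scara5 stood near 2 in fibroblasts and below -1 in both other groups, and Dpp4 was not well above background in myofibroblasts.

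The cell-surface markers of the Ly6 and sialomucin kind came first. Ly6a, a GPI-anchored protein used to sort adventitial cells, stood at 3.69 and 4.28 times the 75th percentile in myofibroblasts, 12 and 19.2 in fibroblasts, and 24.1 and 21.6 in homogenates. Its fitted difference was -1.94 ± 0.32 on the log2 scale between the sorted groups (SE, n = 2 each; adjusted p = 0.0168). Ly6c1, a related GPI-anchored protein of endothelium, read 5.69 and 6.88 in myofibroblasts, 29.3 and 29.0 in fibroblasts, and 42.0 and 39.9 in homogenates. It fell by 2.22 ± 0.24, 4.66-fold (adjusted p = 0.00552), and the fibroblast arrays differed from each other by far less than from the myofibroblast arrays. Both Ly6 genes were high in homogenate, where the 10 endothelial markers summed to 96.2 and 93.1, and the part of endothelial RNA in those levels was not tested.

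Cd34, a sialomucin of vascular and stromal progenitor cells, stood at 11.7 and 15.1 in myofibroblasts, 55.2 and 35.9 in fibroblasts, and 8.41 and 8.63 in homogenates. It fell by 1.75 ± 0.31, 3.36-fold (SE, n = 2 each; adjusted p = 0.0214). The order of levels for Cd34 thus put fibroblasts highest and the other groups close together, unlike the Ly6 genes, whose homogenate arrays read highest, though not past the test against fibroblasts. This holds for the brighter Cd34 probe and not for the other, given below.

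Among the enzymes and receptors of the surface, Dpp4 (CD26), a serine peptidase that trims chemokines and peptide hormones, was not well above background on either myofibroblast array. Its level was 0.00848 and 0.00858 in myofibroblasts, 0.283 and 0.0666 in fibroblasts, and 2.22 and 1.97 in homogenates. The 2 fibroblast arrays differed by 2.09 on the log2 scale, the widest replicate gap of any member in any group. Dpp4 was at least 3.4-fold lower in myofibroblasts than in fibroblasts (adjusted p = 0.0179), measured against the dimmest signal well above background. With the dim signals raised to that floor the difference was -1.76 (adjusted p = 0.107), and with normexp background correction it was -0.70 (adjusted p = 0.161). Without fibroblast replicates 1 and 2 the fitted difference was -2.97 and -5.05, against -4.01 with all arrays.

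Ackr3, an atypical receptor that removes the chemokine CXCL12, stood at 3.78 and 7.41 in myofibroblasts, 29.6 and 17.8 in fibroblasts, and 7 and 6.45 in homogenates. It fell by 2.12 ± 0.43, 4.34-fold (SE, n = 2 each; adjusted p = 0.0293), and myofibroblast and homogenate levels overlapped. Scara5, a scavenger receptor that takes up ferritin, stood at 0.0876 and 0.344 in myofibroblasts, 4.11 and 4.76 in fibroblasts, and 0.187 and 0.111 in homogenates. Scara5 was high on both fibroblast arrays, and the other groups overlapped at low levels. It fell by 4.67 ± 0.68, 25.5-fold (adjusted p = 0.0123). The size of the Scara5 difference varied, at -3.69 and -5.66 without myofibroblast replicates 1 and 2, -3.03 with the mean over its probes and -3.35 with normexp background correction, each past the threshold.

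The remaining members are secreted. Pi16, a peptidase inhibitor of the CAP family, stood at 1.27 and 2.70 in myofibroblasts, 8.78 and 9.47 in fibroblasts, and 0.773 and 0.766 in homogenates. It fell by 2.30 ± 0.40, 4.92-fold (SE, n = 2 each; adjusted p = 0.0196), and its order was fibroblasts, then myofibroblasts, then homogenates, with no overlap between groups. Vit, the matrix protein vitrin, stood at 0.151 and 0.146 in myofibroblasts, 4.45 and 3.23 in fibroblasts, and 0.133 and 0.104 in homogenates. It fell by 4.68 ± 0.29, 25.6-fold (adjusted p = 0.00142), the smallest adjusted p of the 10 genes, and the difference was -3.22 with normexp.

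Dpt, or dermatopontin, a matrix protein that binds decorin and assists collagen fibril formation, stood at 2.22 and 2.08 in myofibroblasts, 2.82 and 4.13 in fibroblasts, and 0.335 and 0.353 in homogenates. It was the exception among the members: the difference between the sorted groups was -0.67 (95% interval -1.37 to 0.04; adjusted p = 0.155), which includes a fall of more than 2-fold and no change. Clec3b, the plasminogen-binding lectin tetranectin, stood at 1.04 and 1.41 in myofibroblasts, 3.55 and 4.39 in fibroblasts, and 1.30 and 1.28 in homogenates. It fell by 1.71 ± 0.28, 3.27-fold (SE, n = 2 each; adjusted p = 0.0169).

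The count of 9 depended on the arrays that set the spread. Left out in turn, myofibroblast replicates 1 and 2 gave counts of 4 and 6, fibroblast replicates 1 and 2 gave 7 and 9, and each homogenate array gave 3. Ly6a, Cd34 and Dpp4 missed the threshold without any 1 of the myofibroblast or homogenate arrays, at adjusted p of 0.0594 to 0.0774 for Ly6a, 0.0711 to 0.0928 for Cd34 and 0.0509 to 0.0855 for Dpp4. Ackr3 missed it without myofibroblast replicate 1, fibroblast replicate 1 or a homogenate array (adjusted p of 0.0775 to 0.0988). Pi16 missed it without fibroblast replicate 1 or a homogenate array (adjusted p of 0.0549 to 0.0626), and Clec3b without myofibroblast replicate 1 or a homogenate array (adjusted p of 0.0649 to 0.0740). With only the 4 sorted arrays in the fit the count was 5. That 5 and the counts without a fibroblast array include Ly6a, whose difference is no finding. Ly6c1 and Vit passed in all 18 alternative settings, Scara5 in 17 with array weights as its exception (adjusted p = 0.0528), and every member kept a negative difference in all settings in which it was tested.

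**Figure D2:**
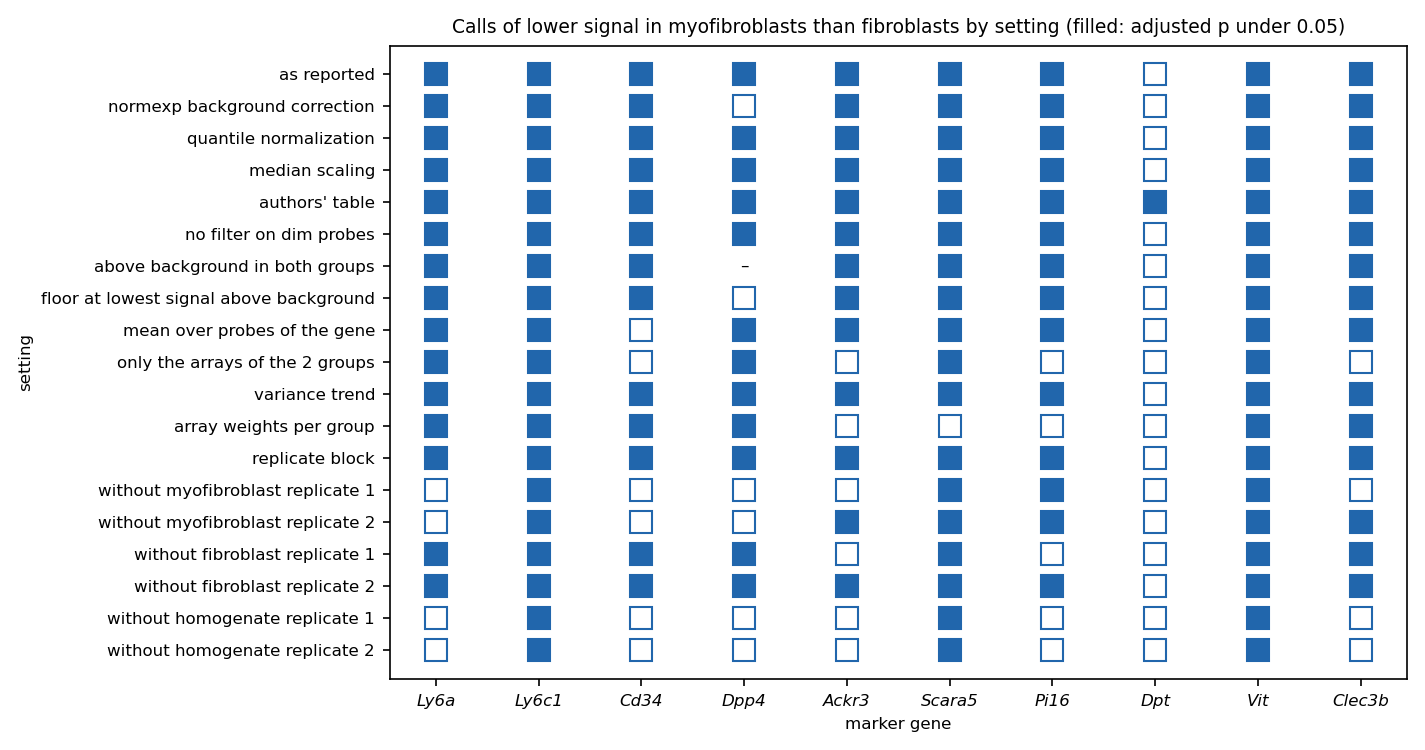
Test of each gene between myofibroblasts and fibroblasts (columns) under the reported setting and 18 alternatives (lines of the plot), with a filled square where the adjusted p was under 0.05, an open square where it was not and a dash where the gene was not tested. Ly6c1 and Vit were filled throughout, and the open squares gathered where an array was left out.

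**Figure D3:**
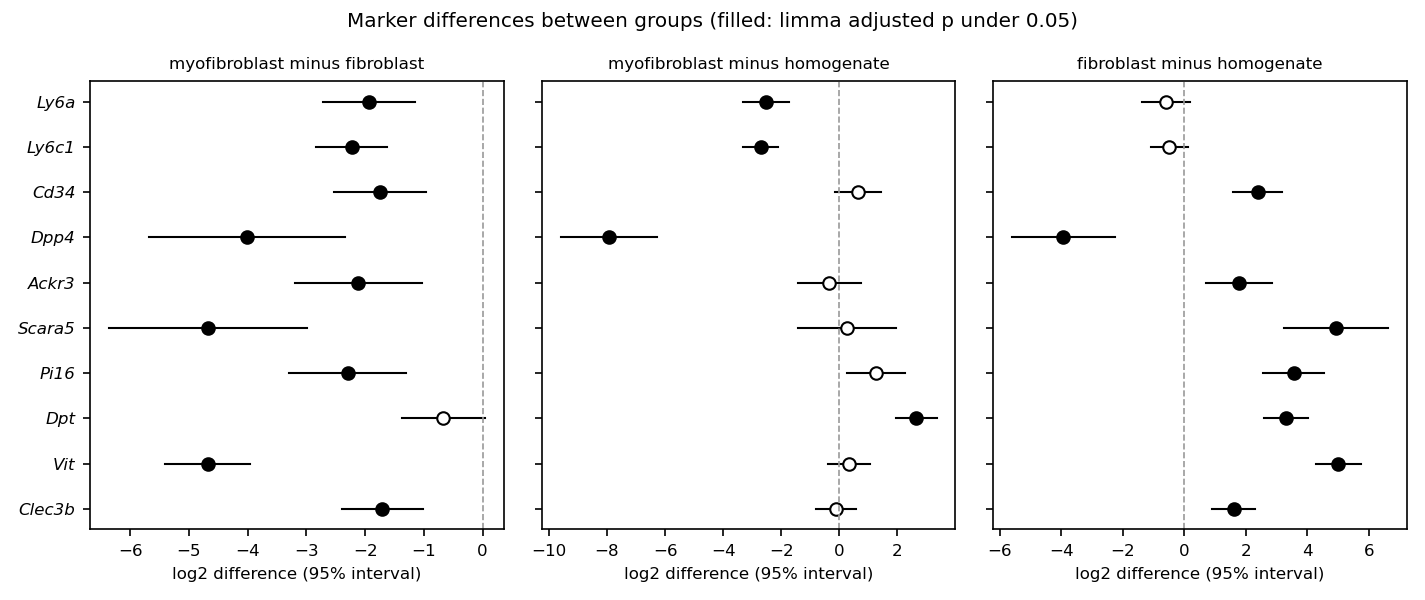
Log2 difference of each gene in the 3 comparisons, with the 95% interval of the limma fit (6 arrays, 2 a group) and filled symbols where the adjusted p was under 0.05. Differences between the sorted groups ran from -4.68 for Vit to -0.67 for Dpt, and those of fibroblasts over homogenate were positive for 7 genes.

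The comparison of fibroblasts with homogenate asks which of the markers are enriched by the CD140a sort. Of the 10 genes, 7 rose, 1 fell and 2 did not pass the test, against 8.09% of 17063 genes tested that rose, 11.8% that fell and 19.9% that changed in either direction. The members' median was 2.08 on the log2 scale, and 0.03 over all genes. Vit was higher by 5.01 ± 0.29 (32.3-fold, adjusted p = 0.000395), Scara5 by 4.94 ± 0.68 (30.7-fold, adjusted p = 0.00592) and Pi16 by 3.57 ± 0.40 (11.9-fold, adjusted p = 0.00299; SE, n = 2 each). Dpt rose 9.91-fold (adjusted p = 0.00124), Cd34 5.23-fold (adjusted p = 0.00523), Ackr3 3.42-fold (adjusted p = 0.0403) and Clec3b 3.05-fold (adjusted p = 0.0133). These are the secreted and matrix genes together with Cd34, Ackr3 and Scara5, and no Ly6 gene is among them. Dpp4 was 15.2-fold lower in fibroblasts than in homogenates (-3.93, adjusted p = 0.0125), with differences of -4.97 and -2.89 without fibroblast replicates 1 and 2 and -2.55 with normexp. With normexp the differences of Vit, Scara5 and Dpt were 3.47, 3.65 and 2.71, and Scara5 was at 2.88 with the mean over its probes, all past the threshold. Ly6a differed by -0.58 (interval -1.37 to 0.20; adjusted p = 0.269) and Ly6c1 by -0.49 (interval -1.09 to 0.12; adjusted p = 0.236). The 10 endothelial, 8 epithelial and 10 leukocyte markers were all lower in summed level in fibroblasts than in homogenates, and the part of those cells in the Dpp4, Ly6a and Ly6c1 levels was not tested. Without either homogenate array the count of 8 was 5, with Clec3b (adjusted p = 0.101 and 0.109), Dpp4 (0.0746 and 0.0697) and Ackr3 (0.166 and 0.199) no longer past the threshold. Ackr3 also missed it without fibroblast replicate 1 (adjusted p = 0.128), and Ly6a passed without fibroblast replicate 2 (-0.92, adjusted p = 0.0443). The arrays of the groups did not overlap for any of the 10 genes, 3 of them lower in fibroblasts, where 62.8% of tested genes were apart and 30.4% were apart and lower.

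Set against homogenate, the myofibroblasts gave 5 negative and 5 positive differences among the members. Of the 10 genes, 1 rose, 3 fell and 6 did not pass the test, where 11.9% of 17163 genes tested rose, 15.0% fell and 26.9% changed. The arrays did not overlap for 7 genes, 3 of them lower in myofibroblasts, where 77.5% of tested genes were apart and 38.8% were apart and lower. The count that rose and the counts that were apart are near those shares of all genes. The members' median was 0.08, close to the -0.01 of all genes. Dpt was 6.25-fold higher in myofibroblasts than in homogenates (2.64 ± 0.28; SE, n = 2 each; adjusted p = 0.00228), the gene that did not pass between the sorted groups. Ly6a was 5.74-fold lower (adjusted p = 0.00385), Ly6c1 6.54-fold lower (adjusted p = 0.00127) and Dpp4 at least 51.7-fold lower (adjusted p = 0.00102). The myofibroblast gate excluded Sca-1, so the Ly6a difference is no finding here either. For Pi16 the difference was 1.27 (interval 0.27 to 2.26; adjusted p = 0.0672), which passed without myofibroblast replicate 1 (1.81, adjusted p = 0.0273), and for Cd34 it was 0.64 (interval -0.15 to 1.42; adjusted p = 0.185). Scara5 differed by 0.27 (interval -1.41 to 1.95), Vit by 0.34 (interval -0.38 to 1.06), Ackr3 by -0.34 (interval -1.42 to 0.73) and Clec3b by -0.10 (interval -0.80 to 0.59). The Scara5 interval holds a 2-fold difference in either direction. The calls of Dpp4, Dpt, Ly6a and Ly6c1 here held in every alternative run in which they were tested.

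The members did not all share one profile over the arrays. Around the median profile of the 10, with each profile centred on its own mean, the root mean square distance over 6 arrays was 0.23 for Ackr3, 0.32 for Clec3b, 0.40 for Cd34 and 0.72 for Pi16. It was 1.2 for Dpt, 1.22 for Ly6c1, 1.23 for Ly6a, 1.35 for both Scara5 and Vit, and 3.39 for Dpp4. Ackr3, Clec3b and Cd34 thus lay nearest the median. The distance mixes the size of a profile with its shape. Vit and Scara5, like the median, were highest in fibroblasts, while Ly6a and Ly6c1 were highest in homogenates. The Dpp4 distance, and its nearest genes below, use myofibroblast signals of Dpp4 that were not well above background and have only an upper bound, so they carry no exact size. Among 15840 other genes, those nearest to the members' median profile were Crym at 0.18, Pir at 0.20, Bmp4 at 0.21, Colq at 0.22 and Arhgef10 at 0.24. The nearest genes to single members were Adh1 (0.18) and Sult5a1 (0.24) for Pi16, Ly6f (0.20) and Naaa (0.21) for Ly6a, Ly6c2 (0.04) and Card10 (0.14) for Ly6c1, Pcdhb14 (0.10) and C1ra (0.12) for Cd34, and Gpr62 and Nr1h3 (0.15 each) for Ackr3. They were Fgf5 (0.33) and Tceal5 (0.55) for Scara5, Rbp4 (0.38) and Prokr1 (0.43) for Vit, Ccn1 (0.19) and Bicc1 (0.20) for Dpt, Rarres2 (0.12) and Apoe (0.14) for Clec3b, and Atp2a3 (0.51) and Myrip (0.53) for Dpp4. These distances describe 6 arrays in 3 groups and carry no test.

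The spread within the myofibroblast group was uneven over the members. Between the 2 myofibroblast arrays, Scara5 differed by 1.97 on the log2 scale, Pi16 by 1.09 and Ackr3 by 0.97, each higher on replicate 2, while Vit differed by -0.05 and Dpt by -0.10. Of the 9 members well above background on both, 7 were higher on replicate 2, 77.8%, against 51.1% of all genes. Of the alveolar fibroblast genes listed below it was 9 of 12 (75%), with a median shift of 0.37. Of the other adventitial genes listed below it was 13 of 24 (54.2%), with a median shift of 0.01. Between the fibroblast arrays 5 of 10 members were higher on replicate 2, against 41.6% of all genes, and between the homogenate arrays 2 of 10, against 46.5%. Over all genes the fibroblast pair was the most spread, with 23.5% of genes over 2-fold apart, against 7.84% in the myofibroblast pair and 2.83% in the homogenate pair. The members' median shift was 0.37 in myofibroblasts and 0.05 in fibroblasts.

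Some genes had further probes or a paralog that bear on these values. The brighter Ly6c1 probe and the Ly6c2 probe differed by at most 0.07 on the log2 scale on any array once each was centred. Ly6c2 fell by 2.22 ± 0.24 between the sorted groups (SE, n = 2 each; adjusted p = 0.00549). Ly6a, Ly6c1 and Ly6c2 lie on chromosome 15, with Ly6c1 next to Ly6a in the RefSeq gene table. Whether the brighter Ly6c1 probe or the Ly6c2 probe also binds RNA of the other gene was not tested. In the fit over all probes, 16.1% of those tested changed between the sorted groups, 22.0% between myofibroblasts and homogenates, and 14.5% between fibroblasts and homogenates. The dimmer Ly6c1 probe read 1.43 and 1.83 in myofibroblasts, 2.30 and 4.46 in fibroblasts, and 11.7 and 11.6 in homogenates. It differed by -0.98 ± 0.39 between the sorted groups (adjusted p = 0.134 over all probes) and fell by 1.86 ± 0.39 between fibroblasts and homogenates (adjusted p = 0.0335), a comparison in which the brighter probe did not pass. The dimmer Cd34 probe read 5.45 and 11.7 in myofibroblasts, 7.22 and 15.6 in fibroblasts, and 2.61 and 2.65 in homogenates, so the sorted groups overlapped (-0.41 ± 0.53; adjusted p = 0.605). With the mean over probes in place of the brighter one, Cd34 differed by -1.08 between the sorted groups (adjusted p = 0.0649). A second Dpp4 probe was not well above background on any sorted array and read 0.660 and 0.482 in homogenates, a level at least 14-fold lower in myofibroblasts and at least 12.2-fold lower in fibroblasts. The second Scara5 probe was well above background on fibroblast replicate 2 alone and was not tested.

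Other genes described for adventitial or universal fibroblasts were read next, as a list of 26. This list was also chosen with earlier results of these data known. Between the sorted groups, where 8.02% of all genes fell and 9.22% rose, 10 of the 26 fell, 2 rose and 14 did not pass the test, and 22 differences were negative, with a median of -1.56 against -0.06 over all genes. Efemp1, the matrix protein fibulin-3, fell by 3.61 ± 0.37 (SE, n = 2 each; adjusted p = 0.00479), with log2 levels of 1.82 and 1.79 in myofibroblasts, 5.90 and 4.93 in fibroblasts, and 2.79 and 2.72 in homogenates. Il33, an alarm cytokine of stromal and epithelial cells, fell by 3.57 ± 0.36 (adjusted p = 0.00453). Efhd1, a calcium-binding protein of mitochondria, was well above background on 1 of the 2 myofibroblast arrays and fell by 4.98 ± 1.03 (adjusted p = 0.0306), with differences of -6.66 and -3.31 without myofibroblast replicates 1 and 2. It lost its call in 8 of the alternatives, with adjusted p up to 0.231 for the mean over probes. Col15a1, a collagen of basement membrane zones, rose by 3.25 ± 0.25 (adjusted p = 0.00241), at log2 levels of 2.09 and 2.03 in myofibroblasts, -1.32 and -1.06 in fibroblasts, and -4.38 and -4.20 in homogenates. The other gene that rose was Fbn1, fibrillin-1, by 1.53 ± 0.28 (adjusted p = 0.0232). The list's 12 calls were 7 and 6 without myofibroblast replicates 1 and 2, and 8 without either homogenate array.

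In fibroblasts over homogenate, where 8.09% of all genes rose and 11.8% fell, 19 of the 26 rose, 1 fell, and 6 did not pass the test, with a median of 2.6. The gene that fell was Sema3c, a secreted semaphorin, by 2.45 ± 0.48 (SE, n = 2 each; adjusted p = 0.0199). The 20 calls were 13 and 12 without homogenate replicates 1 and 2. In myofibroblasts over homogenate 25 were tested, of which 9 rose, 3 fell and 13 did not pass, with a median of 0.89. The 3 that fell are near the 15.0% of all genes that fell, while 11.9% of all genes rose. The 12 calls there were 8 without homogenate replicate 2. Fbn1 rose in this comparison by 4.85 ± 0.28 (SE, n = 2 each; adjusted p = 0.000385), and Col15a1 by 6.35 ± 0.25 (adjusted p = 0.000151).

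Alveolar and lipid-storing fibroblast genes, 14 in all, served as the contrast, and were also chosen with earlier results of these data known. Between the sorted groups, where 8.02% of all genes fell and 9.22% rose, 8 fell, 1 rose and 5 did not pass the test. Their median was -2.11, beside -2.17 for the adventitial members and -0.06 over all genes. Slc7a10, an amino acid transporter, was at least 38.1-fold lower in myofibroblasts than in fibroblasts (adjusted p = 0.00132). Lrat, which makes retinyl esters for storage, fell by 7.16 ± 0.38 (SE, n = 2 each; adjusted p = 0.00128), at log2 levels of -3.13 and -2.61 in myofibroblasts, 4.71 and 3.86 in fibroblasts, and 2.28 and 2.05 in homogenates. Inmt, a methyltransferase, fell by 4.95 ± 0.33 (adjusted p = 0.00178), and Fgfr4, a fibroblast growth factor receptor, well above background on 1 myofibroblast array, fell by 4.80 ± 0.72 (adjusted p = 0.0134; -3.72 and -5.88 without fibroblast replicates 1 and 2), which did not pass without either myofibroblast array (adjusted p = 0.0673 and 0.0582). Plin2, a lipid droplet coat protein, was the gene that rose, by 1.16 ± 0.28 (adjusted p = 0.0436), and 1 of 14 is near the 9.22% of all genes. The 9 calls were 5 and 4 without myofibroblast replicates 1 and 2, and 6 without either homogenate array. A lower level between these sorts was therefore measured in both lists, and no difference between the lists was tested. In fibroblasts over homogenate (8.09% of all genes rose, 11.8% fell) 8 of the 14 rose, 1 fell and 5 did not pass, and 2 and 1 calls were left without homogenate replicates 1 and 2. In myofibroblasts over homogenate (11.9% of all genes rose, 15.0% fell) 1 rose, 5 fell and 8 did not pass.

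**Figure D4:**
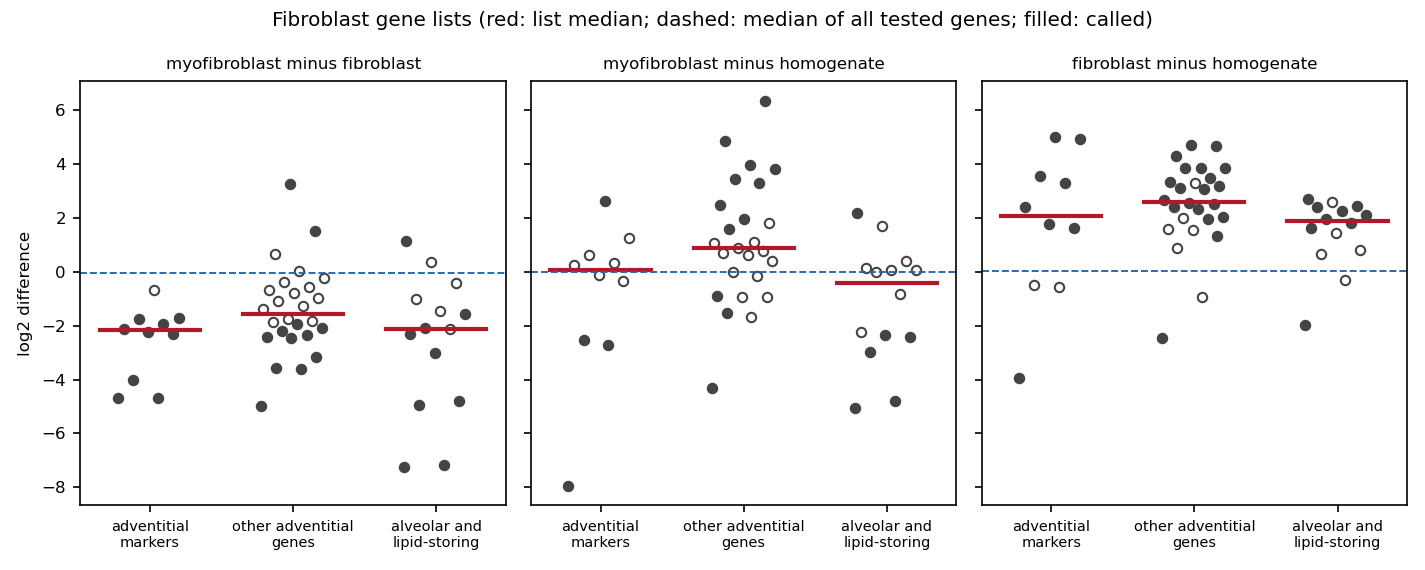
Log2 difference for every gene of the adventitial members, the companion list of 26 and the alveolar list of 14, in each comparison, with filled symbols where the adjusted p was under 0.05, a red line at each list's median and a dashed line at the median of all tested genes. Between the sorted groups the list medians were -2.17, -1.56 and -2.11, and Col15a1 and Fbn1 were the companion genes that rose.

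**Figure D5:**
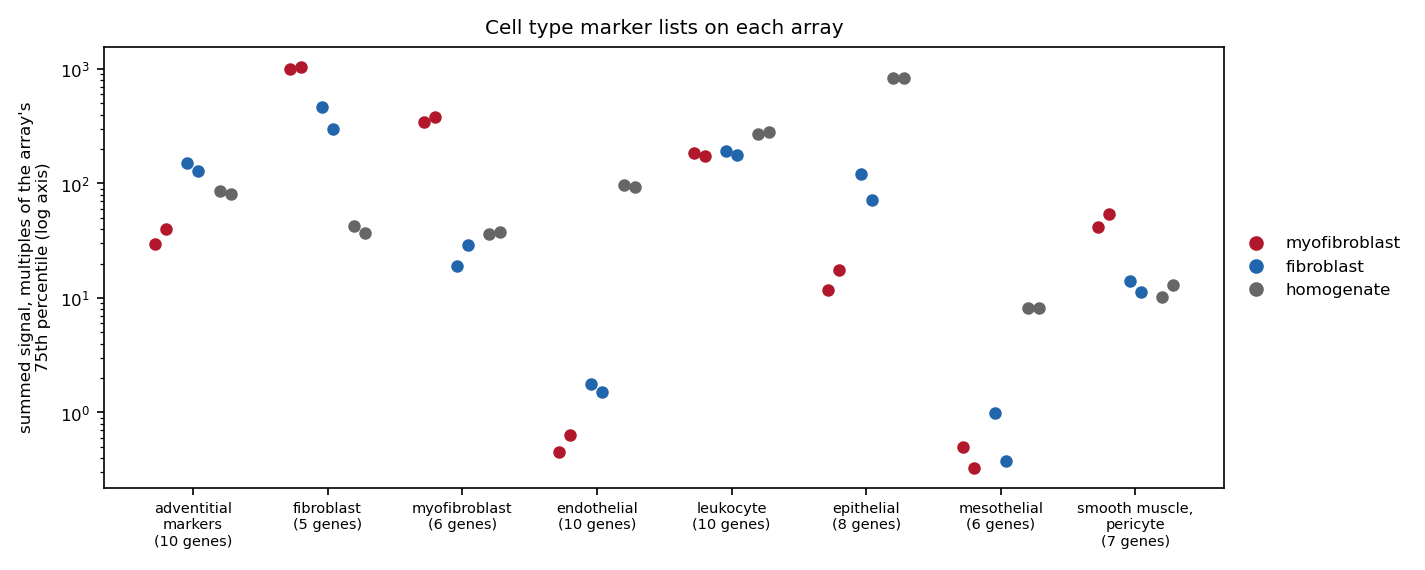
Summed level of each marker list on each array, in multiples of the array's 75th percentile on a log axis, with myofibroblasts, fibroblasts and homogenates from left to right. The members summed to 29.6 and 40.3 in myofibroblasts, 150 and 128 in fibroblasts, and 86.5 and 81.1 in homogenates, and the endothelial, mesothelial and epithelial lists were lower on every sorted array than on either homogenate array.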

How the data were processed

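RNA of 6 samples was hybridised to one-colour arrays. Each array's Cy3 intensity per spot was deposited as scanner output of Agilent Feature Extraction 12.0.3.1, per the file headers; the processed intensity is background-corrected there. The authors' normalized intensity table equalled each array's processed signal times a constant (from 5.17 to 6.93) and served as an alternative only. Control spots and outlier spots were left out, spots of a probe were averaged, and log2 processed signal was centred on each array's 75th percentile, 224 to 282 units. Testing a gene required its probe to exceed background clearly on each array of 1 or both groups compared, and the brightest of several probes stood for the gene (7897 genes had several). The 3 groups were fitted together with limma 3.58.1 in R 4.3.3 (3 residual degrees of freedom), two-sided, with Benjamini-Hochberg adjustment over all genes tested and a threshold of 0.05. A probe not well above background on 1 or both arrays of a single group compared gives "at least" folds. These set the bright group's mean against the higher of the dim probe and the lowest signal well above background on each array. The number of arrays limits the precision. Promoter windows were aligned with Biopython 1.88. The fit was tested on simulated data.

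All 10 members and Ly6c2 are named, with the 4 companion and 4 alveolar genes of largest change between the sorted groups, the 5 genes nearest the members' median profile and the 2 nearest each member. Fbn1, Plin2, Sema3c and the marker genes singled out of the cell type lists fall outside that rule and were chosen after their values were seen. The members and lists were chosen with earlier results of these data known. Alternatives were normexp correction (on the spot median, offset 50), quantile and median scaling, the authors' table, other background filters, a floor, the mean over probes, 2-group fits, a variance trend, array weights, a replicate term and leaving out each array; their use on the other lists was chosen after seeing the data.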

Additional observations from a re-analysis of the deposited data

How the results depend on the processing

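Direction held for all 10 members between myofibroblasts and fibroblasts and between fibroblasts and homogenates under the alternatives run in which each was tested. The 9 reversals, all between myofibroblasts and homogenates and none past the threshold, were Ackr3 at 0.06 and Clec3b at 0.30 with median scaling, Scara5 at -0.23 and Vit at -0.16 in the authors' table, Scara5 at -0.15 with the mean over probes, Ackr3 at 0.14 (-0.83 to 0.14 with 1 array left out) and Clec3b at 0.12 (-0.32 to 0.12) without myofibroblast replicate 1, and Scara5 at -0.72 (-0.72 to 1.26) without myofibroblast replicate 2 and -0.11 without homogenate replicate 2. Between the sorted groups 9 members passed, against 5 with only their 4 arrays and 6 with array weights, and 3 to 9 when 1 array was left out. Over all genes the 2758 calls became 1264 with 4 arrays and 1189 with array weights, and 1030 to 5738 with 1 array left out. Without fibroblast replicate 2 they were 5738. Between myofibroblasts and homogenates 4 members passed, against 3 to 5 over all alternatives and 4 to 5 with 1 array left out, while 4612 gene calls became 7391 with 4 arrays, 7749 with array weights and 1837 to 7212 with 1 left out. Between fibroblasts and homogenates 8 members passed, against 5 to 9 with 1 left out, while 3392 gene calls became 2027 where both groups had to be above background and 1544 to 6159 with 1 left out. Some counts rose with fewer arrays and others fell, and the cause was not tested. Between the sorted groups the 9, the 5 and the 6 members include Ly6a. Median scaling moved the median of all genes by 0.14, 0.40 and 0.27 and the share of higher calls to 64.6%, 64.9% and 50.7%, and the authors' table gave 25.4%, 20.6% and 36.8%, against 53.5%, 44.3% and 40.7%.

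Pi16 passed between myofibroblasts and homogenates with normexp (adjusted p = 0.0373), median scaling (0.0311), array weights (0.0234) and without myofibroblast replicate 1 (0.0273). Ly6c1 passed between fibroblasts and homogenates with normexp (0.0480) and the mean over probes (0.0321), Ackr3 did not without a background filter (0.0608) or with array weights (0.0675), and Cd34 passed between myofibroblasts and homogenates with the mean over probes (0.0466). Dpt passed between the sorted groups in the authors' table (-1.08, adjusted p = 0.0481). Dim probes, such as Dpp4 in myofibroblasts, limit the folds to bounds. Tek, Efhd1 and Fgfr4 were each dim on 1 myofibroblast array. They were at least 18.1-fold, 15.3-fold and 27.9-fold lower in myofibroblasts than in fibroblasts, and their fitted differences carry no exact size.

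Deviations of arrays with equal replicate numbers correlated at 0.07, -0.01 and 0.04 over 13999 genes, so they showed no shared shift. Whether equal numbers mark a shared animal or day cannot be told from these values. With the replicate block 9, 4 and 7 members and 2227, 4044 and 3219 genes passed, and Ackr3 lost its call between fibroblasts and homogenates (adjusted p = 0.0642).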
